A study of Mus musculus with 15 samples.

Results

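Neuron-rich pixels are the places in a sectioned mouse embryo where transcripts of young neurons made up the largest share of the RNA counted. They were chosen within each section as the 10% of tissue pixels with the highest sum of Tubb3, Stmn2, Dcx, Elavl3 and Elavl4 per 10000 counts, and a pixel counted as tissue when its total was at least 0.1 of the section's 95th percentile of pixel totals. This gave 727 neuron-rich pixels out of 7270 tissue pixels in 6 sections, which were compared with the other 6543 pixels of the same sections. The series as a whole held 17046 tissue pixels in 11 sections. Whole embryos had been frozen and cut, and barcodes were flowed over each section in crossed microfluidic channels, so that every crossing is a pixel with its own counts for each gene. A pixel can hold several cells of different types, or part of 1 cell.

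The 6 sections were 3 from embryonic day 10 (E10) with pixels 50 µm wide, 2 from embryonic day 11 (E11) with pixels 25 µm wide and 1 from embryonic day 12 (E12) with pixels 50 µm wide. The labels give no strain, sex, treatment or body level, and do not say whether sections of a stage came from different embryos. P-values therefore measure the spread between these sections, which may be partly technical. In the order E10 replicates 1, 2 and 3, E11 replicates 1 and 2, and E12, used for every run of 6 values below, the neuron-rich pixels numbered 86, 83, 84, 170, 150 and 154. Levels are given as CPM, which are the counts of a gene summed over a class of pixels and scaled to 1000000 counts of that class.

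Neurons of the embryonic nervous system arise from dividing progenitors that line the neural tube or from neural crest and placode cells that form the peripheral ganglia. A cell that leaves the cell cycle switches off progenitor genes, passes through a short phase in which proneural transcription factors act, and then builds an axon, excitable membrane and release machinery. At these stages motor neurons, sensory ganglion neurons and hindbrain and spinal interneurons are among the first to appear.

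The 5 chosen genes are a tubulin of neurons (Tubb3), 2 proteins that act on microtubules of growing axons (Stmn2 and Dcx) and 2 RNA-binding proteins (Elavl3 and Elavl4). They are described here and not tested. Their summed level in neuron-rich pixels was 5533, 3935, 5223, 2114, 2908 and 3173 CPM, against 1345, 889, 1817, 227, 240.0 and 203 CPM in the other pixels. The level in the other pixels was thus far higher at E10 than later, and 0.906, 5.23, 0.662, 59.1, 46.7 and 50.5% of the other pixels held none of the 5 transcripts. The median score was 53.0, 37.8, 50.2, 14.6, 16.03 and 14.2 per 10000 in neuron-rich pixels, and the lowest score inside and the highest outside the group were 40.54 and 40.53, 25.2 and 24.9, 41.2 and 40.9, 10.04 and 10.04, 9.43 and 9.28, and 9.75 and 9.72. These gaps are small, so the border of the group is a point on a continuous range. A neuron-rich pixel held a median of 60.0, 38.0, 55.5, 4.0, 8.0 and 5.0 counts of the 5 genes, so membership at E11 and E12 rests on few molecules. Median total counts per pixel differed little between neuron-rich and other pixels, with 11341 and 11332, 9276 and 8113.5, 10017 and 10675, 2457.5 and 2545, 5078 and 4307, and 3583.5 and 3560. When each of the 5 genes was left out of the score and measured in pixels chosen by the other 4, it was still 2.01 to 5.33 times as high in the chosen pixels at E10, 4.14 to 11.9 times at E11 and 8.81 to 14.8 times at E12.

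Libraries of the 6 sections held between 5122067 and 11525934 counts, and 1 pair of sections stood apart. The 2 E11 sections showed the same layout on the grid. Of the 1386 grid positions that were tissue in both, 139 and 141 were neuron-rich and 52 were neuron-rich in both, which is 37.4% and 36.9% of them, where 10.0% and 10.2% of these positions were neuron-rich. Any other pair of the 6 sections had between 2 and 16 neuron-rich positions in common, most between E10 replicate 3 and E12, where these were 44.4% of 36 and 17.8% of 90. The E11 pair also stood apart by its counts per position, with a Pearson r of 0.64 for the log total across the shared positions, against at most 0.29 for any other pair. For the share of Myh6, a heart myosin, r was 0.75 in the E11 pair. It was 0.38, 0.25 and 0.53 for E10 replicates 1 and 2, 1 and 3, and 2 and 3, and at most 0.035 between stages. By this gene the E10 sections were thus also partly alike in layout. Positions of a grid are not independent. Results that rest on the E11 sections are also given with that pair summed as 1 sample where that changes a count by more than 1.5 times or ends a call of a list. The sections also differed in genes of body position, although the labels give no body level. Hoxc9, a gene of the trunk, had no count in the neuron-rich pixels of any E10 section, and reached 185, 239 and 55.03 CPM in those of the 2 E11 sections and E12. Otx2, a gene of the forebrain and midbrain, was present at 29.96, 6.38 and 101 CPM in E10 neuron-rich pixels. It had no count in those of either E11 section and reached 5.64 CPM at E12, from 4 counts. Hoxc8 and Hoxa10, like Hoxc9, had no count in neuron-rich pixels at E10. Not all genes of position split in this way. Hoxb5 was at 65.4, 76.5, 24.8, 17.9, 25.96 and 26.8 CPM in neuron-rich pixels. Hoxb8 was at 15.4, 34.01, 13.8, 60.3, 46.7 and 8.47 CPM. These genes were picked after their values were seen. Stage differs in every comparison between the groups, and body level may differ with it. Pixel width also differs between E10 and E11 but not between E10 and E12. These cannot be told apart where they differ together.

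**Figure D1:**
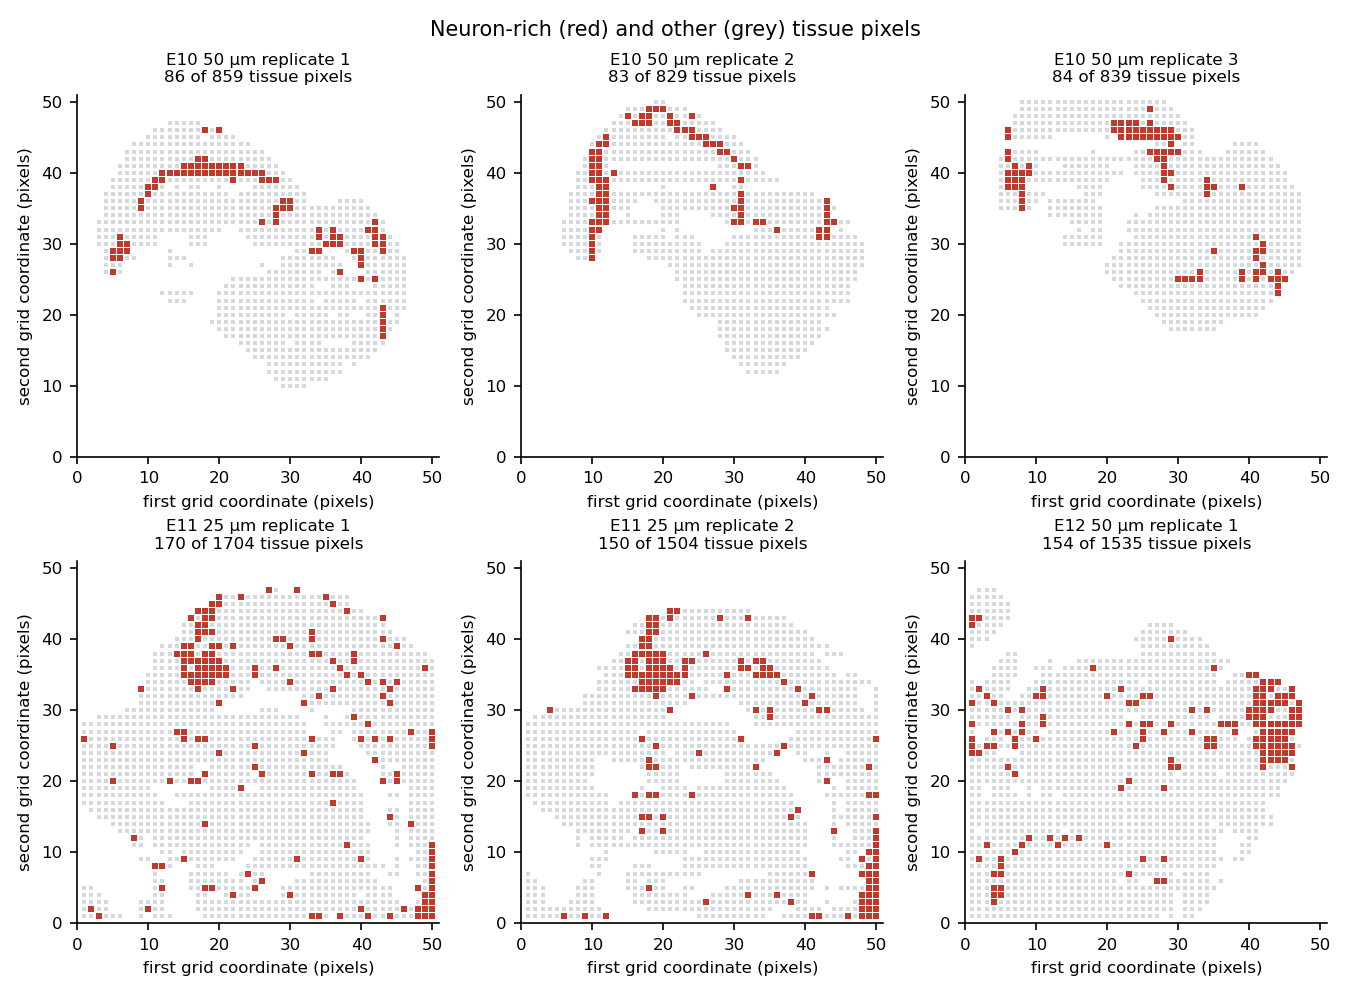
Position of the 727 neuron-rich pixels (red) among all tissue pixels (grey) in the 6 sections, with the 2 grid coordinates in pixels on the axes. Large patches stand beside scattered single pixels, and the 2 E11 sections carry patches at like positions.

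Position on the grid did not enter the rule. Neuron-rich pixels lay together: of the 4 nearest tissue neighbours of a neuron-rich pixel, 49.8, 52.5, 54.6, 31.96, 46.4 and 43.4% were neuron-rich too. Around the other pixels the share was 5.88, 5.85, 5.0, 7.20, 5.55 and 6.44%. The shares of the 2 classes do not overlap, and the difference had a mean of 40.4 percentage points (SD 8.86, n = 6 sections). It was positive in 6 of 6 sections, with a two-sided exact permutation p of 0.03125, the smallest that 6 sections allow. Neighbours share a channel, so both channel directions were compared, and the share was 30.1 to 50.9% along the first grid direction and 35.4 to 59.0% along the second. With the pair of E11 sections averaged as 1, the difference was 42.0 points in 5 of 5 samples, and the exact permutation p of 0.0625 is the smallest that 5 samples allow.

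Patches were defined as neuron-rich pixels joined over the 8 surrounding grid positions. The sections held 14, 9, 10, 76, 50 and 44 patches, the largest with 37, 35, 36, 48, 50 and 65 pixels. Patches of at least 10 pixels held 54.6, 73.5, 81.0, 38.8, 60.0 and 42.2% of the neuron-rich pixels, while 7, 4, 3, 52, 36 and 24 pixels stood alone. The share in large patches was highest in E10 replicates 3 and 2.

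The 13 large patches differed in the transcription factors they carried. The following levels are descriptions of single patches with no replicate. In E10 replicate 3, a patch of 15 pixels held 244 CPM of Otx2, and 149 CPM of Gata3, an interneuron factor, with Hoxb5 at 12.2 CPM. The largest patches of E10 replicates 1 and 2 instead held Hoxb5, which marks hindbrain and spinal levels, at 97.0 and 115 CPM. Lhx1, an interneuron factor, reached 376 CPM in the largest patch of E10 replicate 2 and 403 CPM in that of replicate 3. At the edge of the grid in both E11 sections, a patch of 18 pixels in replicate 1 and of 28 pixels in replicate 2 held Prph, an intermediate filament of peripheral and motor neurons, at 336 and 155 CPM. The same patches held Slc18a3, the vesicular acetylcholine transporter, at 275 and 137 CPM and Isl1, a factor of motor and sensory neurons, at 153 and 191 CPM. These 2 patches are at like positions in the pair of sections that share a layout, and the smaller rests on 32718 counts. Another patch of E11 replicate 2, with 12 pixels, stood out by Sox2, a progenitor factor, at 496 CPM, with Onecut2 at only 70.8 CPM. The 1 large patch at E12, with 65 pixels, held Isl1 at 186, Pou4f1 at 157 and Neurod1 at 142 CPM, which sensory ganglia express, together with the interneuron factors Lhx1 at 145 and Onecut2 at 473 CPM.

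For the comparison across all genes, counts were summed over the neuron-rich and over the other pixels of each section, and the paired sums were tested with edgeR's quasi-likelihood test with the section as a block. Of 12844 genes tested, 1867 were higher in neuron-rich pixels (14.5%) and 1804 were lower (14.0%) at an adjusted p under 0.05, and the median log2 fold change was -0.04. The 5 genes of the score were left out of the test. Among the genes called, 681 were higher by a log2 fold change of at least 1 and 253 were lower by as much. The pattern is one of neuronal genes rising together while genes of the cell cycle, blood, heart, liver, epithelium and mesenchyme were lower. In counts of this kind, fewer cells of a type and less RNA per cell cannot be told apart.

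The 12 genes with the largest increase, among those of sufficient level and of 1 direction in all 6 sections, came from several of the neuronal lists. Slc18a3, which loads acetylcholine into vesicles, was measured at 29.1, 21.3, 16.6, 53.6, 40.2 and 18.3 CPM in neuron-rich pixels and at 3.32, 2.42, 3.04, 3.03, 2.03 and 1.21 CPM in the others. The classes do not overlap over the 6 sections, and the log2 fold change was 3.44 ± 0.26 (SE; edgeR adjusted p = 1.2e-09). Isl2, a motor and sensory neuron factor, was at 43.6, 15.9, 17.5, 42.4, 73.99 and 39.5 CPM against 4.39, 3.62, 4.5, 2.6, 2.75 and 1.38 CPM, again without overlap (log2 fold change 3.43 ± 0.37). Lhx4, a factor of motor neurons and some interneurons, was at 98.96, 14.9, 69.01, 24.6, 68.8 and 22.6 CPM against 10.2, 2.28, 13.8, 3.9, 2.75 and 1.04 CPM, without overlap but by a small margin (log2 fold change 3.21 ± 0.27). Ecel1, an endopeptidase of neurons, was at 74.5, 25.5, 26.7, 62.5, 58.4 and 39.5 CPM against 7.32, 1.48, 5.66, 6.5, 4.78 and 4.83 CPM (log2 fold change 3.21 ± 0.21), and Nwd2 had a log2 fold change of 3.26 ± 0.22. Scn9a, a sodium channel of peripheral neurons, was at 109.9, 36.1, 31.3, 8.93, 27.3 and 142 CPM in neuron-rich pixels and 10.9, 7.38, 11.2, 0.216, 1.16 and 7.08 CPM in the others, highest at E12 and lowest in E11 replicate 1 (log2 fold change 3.11 ± 0.45). For all of these except Scn9a, the lowest neuron-rich section lay above the highest section of the other pixels.

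**Figure D2:**
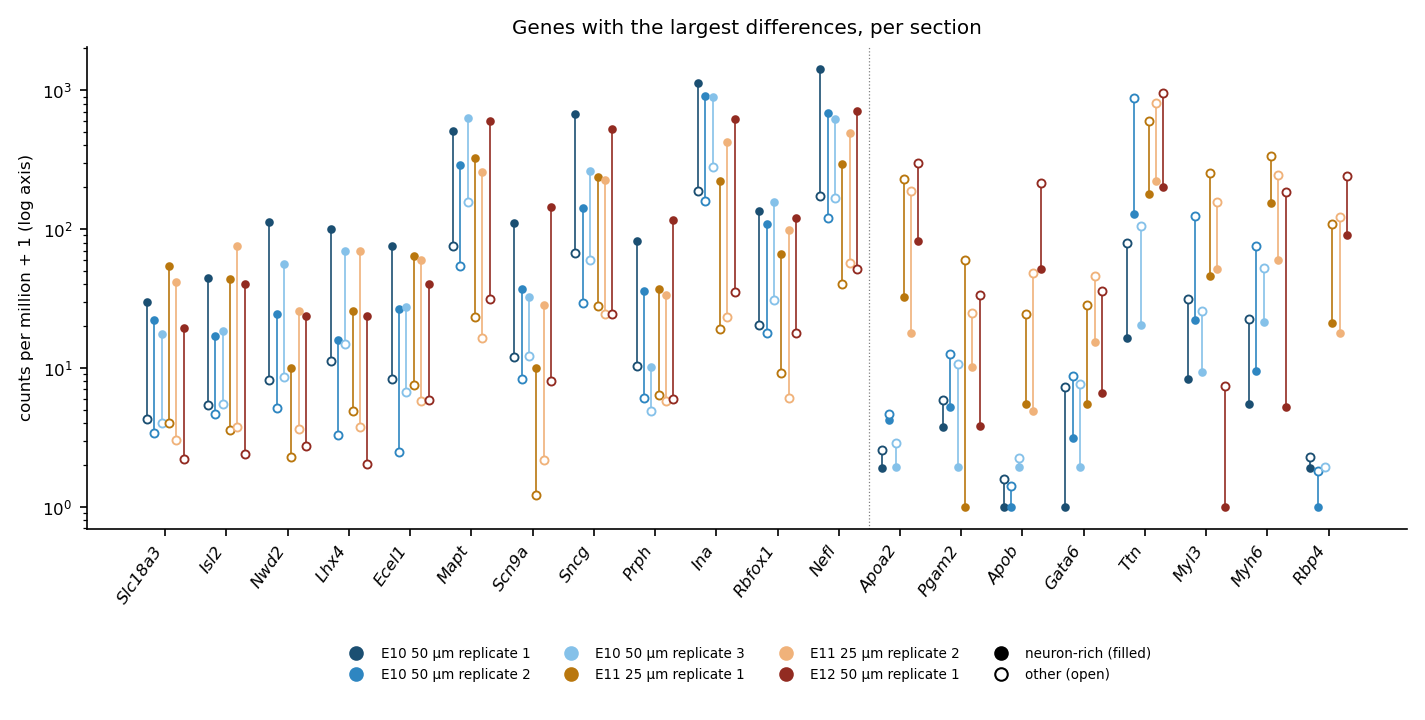
Levels (CPM + 1, log axis) of the 12 genes with the largest increases, left of the dotted line, and the 8 with the largest decreases, right of it, in neuron-rich (filled) and other pixels (open) of each section, joined by a line. Every joined pair left of the line has the neuron-rich level on top, as in Slc18a3 with 16.6 to 53.6 CPM against 1.21 to 3.32 CPM, and every pair on the right has it below.

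The neuronal cytoskeleton and growth cone list showed the most even rise. All 27 tested genes of it were higher in neuron-rich pixels, with a median log2 fold change of 1.85 against -0.04 over all genes tested. Mapt, which encodes tau, was at 511, 289, 634, 326, 256 and 601 CPM in neuron-rich pixels and 74.8, 52.9, 156, 22.1, 15.3 and 30.4 CPM in the others, with no overlap (log2 fold change 3.12 ± 0.37; edgeR adjusted p = 0.0024). The intermediate filament genes stood out within the list. Ina was at 1126, 907, 893, 221, 426 and 624 CPM against 187, 158, 279, 18.2, 22.3 and 34.02 CPM, where the lowest neuron-rich value, in an E11 section, lay below the highest of the others, in an E10 section, although every section on its own differed in the same direction (log2 fold change 3.0 ± 0.41). Nefl was at 1423, 684, 621, 292, 489 and 704 CPM against 172, 119.5, 168, 38.97, 56.2 and 50.8 CPM and did not overlap (log2 fold change 2.85 ± 0.26). Prph was at 80.8, 35.1, 9.2, 35.7, 32.5 and 116 CPM against 9.27, 5.1, 3.88, 5.41, 4.78 and 5.01 CPM, lowest in E10 replicate 3, where it touched the range of the others, and highest at E12 (log2 fold change 3.01 ± 0.31). Gap43, a growth cone protein, had a log2 fold change of 2.55 ± 0.23. At the other end of the list, the more widely expressed Stmn1 and Marcksl1 were higher by only 0.85 and 0.28 on the log2 scale.

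RNA-binding proteins that set neuronal splicing rose almost as evenly, with 13 of 14 tested genes higher and a median log2 fold change of 1.49. Rbfox1 was at 134, 108, 156, 64.7, 97.3 and 118 CPM against 19.4, 16.8, 29.6, 8.23, 5.07 and 16.8 CPM (log2 fold change 2.90 ± 0.17; edgeR adjusted p = 6.5e-09), and Rbfox3, the antigen known as NeuN, at 83.5, 110.5, 153, 107, 42.8 and 147 CPM against 25.6, 26.04, 62.2, 9.74, 6.08 and 9.67 CPM (log2 fold change 2.35 ± 0.40). For Rbfox1 the classes do not overlap, while for Rbfox3 the lowest neuron-rich level, in E11 replicate 2, lay below the highest of the others, in E10 replicate 3. Elavl2, a relative of the Elavl genes in the score, had a log2 fold change of 1.98 ± 0.35. Khdrbs3 did not pass the test (0.27).

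The regulators on the opposing side were lower. Of 5 tested genes of the non-neuronal splicing and REST list, 4 fell and 1 rose. Rest, a repressor of neuronal genes outside the nervous system, was at 39.04, 86.1, 38.6, 69.2, 72.7 and 128 CPM in neuron-rich pixels and 92.03, 123, 112, 131, 140.1 and 193 CPM in the others, lower in every section although the ranges overlap between sections (log2 fold change -0.92 ± 0.11; edgeR adjusted p = 1.5e-06). Ptbp1, which represses neuronal exons, was at 15.4, 23.4, 24.8, 62.5, 25.96 and 36.7 CPM against 34.2, 39.5, 42.3, 95.3, 55.01 and 55.95 CPM, lower in every section (log2 fold change -0.82 ± 0.13). Esrp1, an epithelial splicing factor, was at 0, 5.31, 0, 0, 2.6 and 0 CPM against 8.29, 4.3, 4.92, 2.81, 3.62 and 8.29 CPM, lower in 5 sections and slightly higher in E10 replicate 2, with a log2 fold change of -1.96 ± 0.65. The exception was Rcor2, a corepressor found with REST that is also expressed in neural progenitors, which rose by 0.53 on the log2 scale.

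REST is known to bind a long element, RE1, whose left part reads TTCAGCACC. The 250 bases before the start sites of the genes were therefore searched on both strands for these 9 letters. RefSeq promoters of build GRCm38.p6 were used, which matched 8924 of the genes tested. The 4 promoters below hold a match, in capitals, and belong to genes of the lists: Syn1, a synaptic vesicle protein (log2 fold change 1.68), Dner, a neuronal Notch ligand (2.13), Nsg2, a neuronal endosome protein (1.90), and Lhx3, a motor neuron factor (2.04). Each is shown 5′ to 3′ on the strand of its gene, upstream of the transcript's start.
Syn1 (chrX:20920919-20921168, minus strand): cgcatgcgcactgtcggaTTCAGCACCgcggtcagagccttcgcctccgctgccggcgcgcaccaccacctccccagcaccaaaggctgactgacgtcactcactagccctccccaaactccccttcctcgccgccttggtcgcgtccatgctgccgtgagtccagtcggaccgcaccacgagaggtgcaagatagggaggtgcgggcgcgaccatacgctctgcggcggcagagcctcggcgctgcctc
Dner (chr1:84696222-84696471, minus strand): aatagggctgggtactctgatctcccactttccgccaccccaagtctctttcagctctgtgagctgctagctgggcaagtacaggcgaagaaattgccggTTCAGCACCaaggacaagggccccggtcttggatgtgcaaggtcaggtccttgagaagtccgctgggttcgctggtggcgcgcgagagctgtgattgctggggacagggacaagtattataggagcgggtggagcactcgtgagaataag
Nsg2 (chr11:32000450-32000699, plus strand): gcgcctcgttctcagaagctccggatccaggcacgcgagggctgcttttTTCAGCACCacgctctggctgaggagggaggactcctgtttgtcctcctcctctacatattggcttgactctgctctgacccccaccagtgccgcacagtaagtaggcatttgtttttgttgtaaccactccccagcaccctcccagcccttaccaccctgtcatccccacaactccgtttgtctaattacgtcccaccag
Lhx3 (chr2:26208250-26208499, minus strand): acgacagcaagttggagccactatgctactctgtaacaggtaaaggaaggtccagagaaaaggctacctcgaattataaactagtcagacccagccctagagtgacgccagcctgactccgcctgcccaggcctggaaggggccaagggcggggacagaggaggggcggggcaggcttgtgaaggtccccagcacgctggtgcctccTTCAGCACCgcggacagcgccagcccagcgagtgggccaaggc
The match begins 232, 150, 201 and 43 bases before the start in these 4 promoters. The 9 letters were found in 11 of 1900 promoters of genes that rose (0.579%), in 8 of 695 promoters of genes that rose by a log2 fold change of at least 1 (1.15%) and in 1 of 1637 promoters of genes that fell (0.0611%). They were in 35 of 11527 promoters of all genes tested (0.304%) and in 99 of all 32851 promoters of the table (0.301%). A match says nothing of binding in these cells, and these shares were not tested.

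A second set of letters, CAGCTG, is a form of the E-box that proneural factors are known to bind. It reads the same on both strands and shares CAGC with the RE1 part, but neither motif holds the other. It was found in 273 of the 1900 promoters of genes that rose (14.4%), 121 of the 695 with a log2 fold change of at least 1 (17.4%) and 172 of 1637 of genes that fell (10.5%). The share was 1354 of 11527 promoters of all genes tested (11.75%), from which these genes come, and 13% of all promoters in the table. The promoters of Ina and of Pou4f1, whose genes rose by 3.0 and 2.45 on the log2 scale, are shown with their single match in capitals, which begins 135 and 118 bases before the start.
Ina (chr19:47014431-47014680, plus strand): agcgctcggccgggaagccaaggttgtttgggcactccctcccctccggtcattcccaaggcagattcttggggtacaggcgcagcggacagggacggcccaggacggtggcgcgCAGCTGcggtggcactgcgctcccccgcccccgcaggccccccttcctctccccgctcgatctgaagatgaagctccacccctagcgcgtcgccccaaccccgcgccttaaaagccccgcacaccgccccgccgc
Pou4f1 (chr14:104468000-104468249, minus strand): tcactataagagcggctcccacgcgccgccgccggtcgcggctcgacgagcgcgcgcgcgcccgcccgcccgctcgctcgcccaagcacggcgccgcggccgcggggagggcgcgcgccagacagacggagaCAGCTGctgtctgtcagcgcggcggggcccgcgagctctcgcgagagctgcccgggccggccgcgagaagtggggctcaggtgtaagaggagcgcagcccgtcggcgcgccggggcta

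Genes of vesicle release and secretory granules were higher in 20 of 23 tested cases, with a median log2 fold change of 1.74. The largest increase was in Sncg, a synuclein of peripheral neurons, at 677, 141, 260.4, 234, 225 and 525 CPM in neuron-rich pixels and 66.6, 28.3, 58.9, 27.1, 23.3 and 23.5 CPM in the others, without overlap (log2 fold change 3.11 ± 0.34; edgeR adjusted p = 0.0015). Scg2, a granule protein, was at 10.9, 12.8, 12.9, 8.93, 31.1 and 2.82 CPM against 2.83, 1.48, 4.5, 0.216, 1.74 and 0.518 CPM, low in both classes (log2 fold change 2.71 ± 0.38). Snap25, a core part of the fusion machinery, and Syt4, a vesicle protein, had log2 fold changes of 2.23 and 2.45. Syt11 was among the 3 that did not pass the test.

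Of the genes for transmitter synthesis and transport, 8 of 17 were tested and 7 of these were higher. Beside Slc18a3, Slc17a6, the glutamate transporter of hindbrain, spinal and sensory neurons, was at 112, 78.7, 65.3, 0, 9.09 and 63.5 CPM in neuron-rich pixels and 23.4, 16.9, 24.1, 2.17, 1.3 and 3.63 CPM in the others (log2 fold change 2.28 ± 0.36; edgeR adjusted p = 0.0028). It had no count in the neuron-rich pixels of E11 replicate 1 and was clearly higher in the other 5 sections. Slc32a1, the transporter of inhibitory neurons, was at 15.4, 6.38, 15.6, 0, 1.3 and 12.7 CPM against 4.49, 1.07, 5.13, 0.65, 0.289 and 0.691 CPM (log2 fold change 2.12 ± 0.38). In E11 replicate 1 its level outside the neuron-rich pixels was only 0.65 CPM, so the 0 inside them says little. Th, of catecholamine synthesis, and Gad2, of GABA synthesis, rose by 1.88 and 1.55 on the log2 scale, while Ddc (0.37) did not pass the test. Genes such as Gad1, Chat, Dbh and Tph2 were too low to be tested. Over the 6 sections together, transcripts of cholinergic, glutamatergic, inhibitory and catecholaminergic neurons were thus all represented in neuron-rich pixels. This does not hold for each section, since Slc17a6 and Slc32a1 had no count in those of E11 replicate 1.

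Receptors and ion channels rose in 17 of 25 tested cases (median log2 fold change 1.52) and fell in none. The sodium channels Scn9a, Scn2a1 and Scn3a rose by 3.11, 2.36 and 2.19, and the calcium channel Cacna1b by 2.19. Among receptors, Gria2 and Chrnb2, which encode subunits of glutamate and acetylcholine receptors, rose by 2.26 and 2.10. Gria3 (0.22), Gabra3 (-0.24) and Glrb (0.17) did not pass the test.

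The axon guidance and cell adhesion list was more mixed, with 20 of 33 tested genes higher, 1 lower (none with the E11 pair summed) and a median log2 fold change of 0.85. The increases included adhesion molecules of the axon surface: Cntn2 was at 350.5, 376, 295, 453, 383 and 203 CPM in neuron-rich pixels and 118, 83.6, 90.8, 30.3, 22.3 and 11.2 CPM in the others, without overlap (log2 fold change 2.75 ± 0.48; edgeR adjusted p = 0.01), and L1cam and Nfasc rose by 2.64 and 2.09. Receptors of growth cones, Dcc and Robo3, which take part in crossing of the midline, rose by 1.87 and 1.89. The 1 gene of the list that fell was Epha7 (-0.25), and the ligand genes Ntn1 (-0.15), Sema3a (-0.37) and Efnb3 (0.02), which other cells of the neural tube also make, did not pass the test. Which cells made these transcripts here was not tested.

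Transcription factors of neuron types were compared next. Of the motor and visceral motor list 6 of 10 tested genes rose and 1 fell, of the sensory ganglion list 8 of 17 rose and 1 fell (none fell with the E11 pair summed), and of the interneuron list 17 of 28 rose and 2 fell. Isl1 (1.97) belongs to both motor and sensory neurons, and Lhx3 and Lhx4 to motor neurons. Among sensory genes, Pou4f1 was at 78.99, 103, 65.3, 29.01, 41.5 and 97.4 CPM in neuron-rich pixels and 20.6, 25.9, 23.2, 4.98, 3.76 and 3.63 CPM in the others, without overlap (log2 fold change 2.45 ± 0.44; edgeR adjusted p = 0.0096), and Ret and Tlx2 rose by 2.33 and 2.38. The Onecut genes, of motor neurons and several interneurons, were prominent in all sections: Onecut2 was at 1129, 493, 1306, 272, 409 and 292 CPM against 179, 102, 328, 29.9, 29.5 and 36.95 CPM (log2 fold change 2.73 ± 0.25), and Onecut1 and Onecut3 rose by 2.58 and 2.65. Pax8 and Lhx1, of inhibitory and other interneurons, rose by 2.66 and 2.50. The genes that fell were Tbx2 (-0.96), Six4 (-0.56), Lhx2 (-0.86) and Foxp2 (-0.49). Each is known to be expressed outside young neurons too, and the part of this in their decrease was not tested.

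Genes of forebrain neurons did not rise. Of 16 genes in the list 6 were tested, of which none rose, 2 fell, among them Emx2, and 4 did not pass. Over all genes tested, 14.0% fell. The summed level of the list was near equal in the 2 classes in E10 replicate 3 (154 and 159 CPM) and E12 (138 and 141 CPM). It was lower in the neuron-rich pixels of the other sections. Emx2, of the dorsal telencephalon, was at 4.54, 3.19, 11.04, 0, 1.3 and 2.82 CPM in neuron-rich pixels and 20.98, 17.2, 17.8, 2.38, 3.33 and 17.4 CPM in the others (log2 fold change -1.69 ± 0.31; edgeR adjusted p = 0.00023). It was lower in all 6 sections. Forebrain progenitors also make it, and their part in the decrease was not tested. Tbr1, Eomes, Neurod2 and Neurod6, which mark cortical neurons, were too low to be tested.

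Proneural and early neuron factors were higher in 15 of 25 tested cases and lower in none (median log2 fold change 0.98). The count was 8 of 25 with the top 5% of pixels, 20 with the top 20% and 11 with the E11 pair summed. Factors of postmitotic cells rose strongly: Myt1l, at 39.95, 27.6, 25.8, 4.46, 18.2 and 38.1 CPM in neuron-rich pixels and 10.2, 6.85, 10.9, 0.65, 0.289 and 2.25 CPM in the others, had a log2 fold change of 2.43 ± 0.46 (edgeR adjusted p = 0.0048), and Nhlh2, Myt1 and Scrt1 rose by 2.32, 2.30 and 2.0. Neurog2, a proneural factor of dividing cells, rose by less (0.98), and Atoh1 (0.07) and Dll1 (0.12) did not pass the test. Neurod1 (2.17) and Nhlh1 (1.77) were higher in all 6 sections but did not pass either (edgeR adjusted p = 0.055 and 0.057).

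Neural progenitor genes moved little as a list: 3 of 23 rose, 4 fell and 16 did not pass the test, with a median log2 fold change of -0.16, which became 0.05 with the top 20% of pixels. These counts are near the shares over all genes tested, of which 14.5% rose and 14.0% fell. The genes below are therefore described singly and not as a trait of the list. Hes1 (-0.72), which holds progenitors in cycle, Gli3 (-0.92), Prom1 (-0.43) and Sox9 (-0.31) fell. Nkx6-1 (1.37), which is also kept in motor neurons, Nes (0.80) and Cdh2 (0.37) rose. Sox2 (-0.24), Pax6 (0.05) and Hes5 (0.09) did not pass. Nes, an intermediate filament of progenitors, was at 1208, 1534, 1228, 641, 596 and 460.0 CPM in neuron-rich pixels and 750.3, 695, 964, 364, 331 and 229.8 CPM in the others, higher in each section although the ranges overlap. The summed level of the 23 genes was 4244, 5144, 5432, 4332, 5249 and 3297 CPM in neuron-rich pixels and 5532, 4484, 6274, 3386, 4185 and 2100 CPM in the others, so that it was lower in 2 of the E10 sections and higher in the other 4.

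Cell cycle genes were lower throughout, with 20 of 24 tested genes falling, none rising and a median log2 fold change of -0.55. Mcm3, of the replication helicase, was at 76.3, 106, 68.1, 91.5, 86.97 and 91.7 CPM in neuron-rich pixels and 196, 161, 145, 141, 162 and 129 CPM in the others, without overlap (log2 fold change -0.86 ± 0.10; edgeR adjusted p = 6.9e-07). Ccne1 and Ccne2, cyclins of the start of S phase, fell by 0.81 and 0.86 on the log2 scale, and Mki67 and Top2a by 0.77 and 0.52. Ccnd1 (-0.16) and Ccnd2 (0.09), cyclins of the earlier G1 phase, were among the 4 that did not pass. Of the genes tied to exit from the cycle, 5 of 9 rose, led by Cdk5r1 (2.29), the neuronal activator of Cdk5. Cdkn1b (-0.05) and Cdkn1c (0.19), which encode cell cycle inhibitors, did not pass. These decreases were smaller than the increases of the neuronal lists, and the summed cell cycle level in neuron-rich pixels was still 4548 to 7185 CPM against 5686 to 8773 CPM elsewhere.

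Genes of neural crest and glial precursors rose in 6 of 10 tested cases (median log2 fold change 1.18). Ngfr, a neurotrophin receptor of crest cells and sensory neurons, was at 97.2, 58.5, 54.3, 158, 205 and 49.4 CPM in neuron-rich pixels and 24.3, 18.5, 12.9, 42.01, 33.3 and 20.7 CPM in the others, without overlap (log2 fold change 1.97 ± 0.14; edgeR adjusted p = 1.1e-09). Sox10, of crest cells and their glia, rose by 1.27, and Tfap2a and Tfap2b by 1.38 and 1.49. Gap43 is in this list as well as in the growth cone list, and Erbb3 (-0.51) did not pass. Of the neuropeptide genes, 4 of 8 rose, among them Cartpt (2.42), Adcyap1 (2.03) and Sst (2.01).

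**Figure D3:**
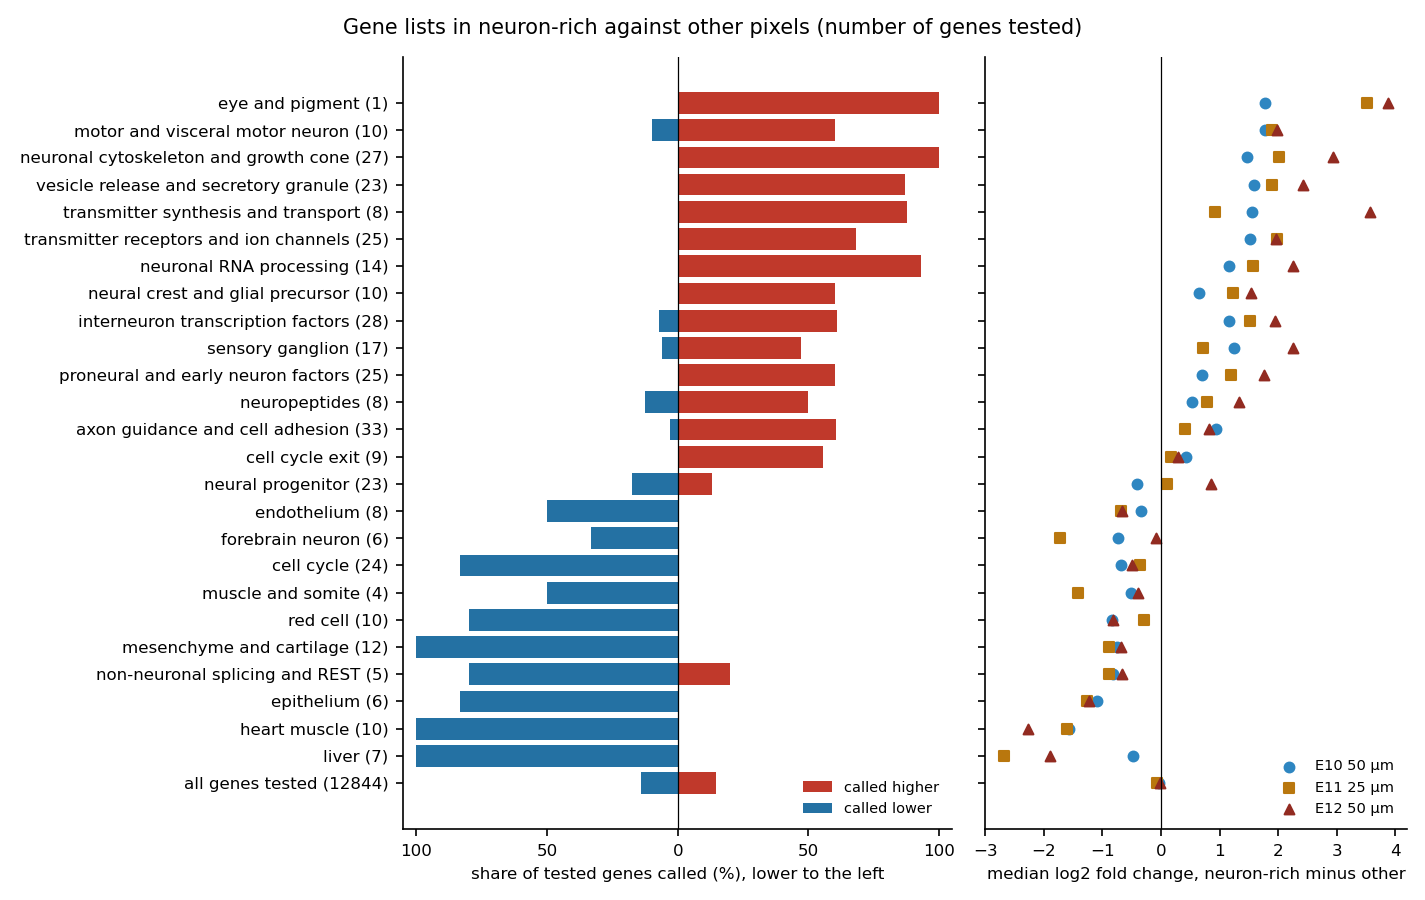
Left, the share of tested genes of each list called higher (red, to the right) or lower (blue, to the left) in neuron-rich pixels; right, the median log2 fold change within E10, E11 and E12, with the number of tested genes of each list in brackets. Neuronal lists reach 100% called higher for the 27 cytoskeleton genes, against 14.5% of all genes.

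Markers of other tissues were lower in neuron-rich pixels. The heart muscle list fell in 10 of 10 tested genes (median log2 fold change -1.61), the liver list in 7 of 7 (-2.07; with the E11 pair summed, 2 of the 2 genes still tested), the mesenchyme and cartilage list in 12 of 12 (-0.72), the red cell list in 8 of 10 (-0.70), the epithelium list in 5 of 6 (-1.22), the endothelium list in 4 of 8 (-0.47) and the muscle and somite list in 2 of 4 (-0.64). None of these lists had a gene that rose. Myh6, a heart myosin, was at 4.54, 8.5, 20.2, 154, 58.4 and 4.23 CPM in neuron-rich pixels and 21.7, 74.4, 51.4, 337, 245 and 184 CPM in the others, lower in each section but with overlapping ranges (log2 fold change -2.11 ± 0.43; edgeR adjusted p = 0.017). Ttn, of the sarcomere, was at 15.4, 128, 19.3, 179, 219 and 200.4 CPM against 78.7, 877, 104, 604, 805 and 951 CPM (log2 fold change -2.23 ± 0.10). Outside the lists, Gata6, a factor of endoderm, heart and mesoderm, was at 0, 2.13, 0.92, 4.46, 14.3 and 5.64 CPM against 6.34, 7.79, 6.7, 27.3, 44.6 and 35.05 CPM (log2 fold change -2.28 ± 0.29). For the liver genes the level itself depended on the section: Apoa2 was at 0.908, 3.19, 0.92, 31.2, 16.9 and 80.4 CPM against 1.56, 3.62, 1.89, 226, 186 and 298 CPM, at most 3.62 CPM in either class at E10 and lower in neuron-rich pixels at E11 and E12 (log2 fold change -2.47 ± 0.25). Apob and Rbp4, which the liver also makes (-2.37 and -2.0), followed the same pattern, and Fgb, with no count in any E10 section, fell by 2.27 in edgeR while DESeq2 gave 0.062.

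These markers were reduced but not absent. Summed over its 10 genes, the red cell list was at 14570, 16390, 10560, 18180, 9522 and 53640 CPM in neuron-rich pixels and at 27280, 33870, 17290, 20840, 15600 and 94300 CPM in the others, and none of its genes was at 0 in neuron-rich pixels of any section. Heart muscle genes summed to 321 to 1424 CPM in neuron-rich pixels and 804 to 4021 CPM in the others, liver genes to 36.1 to 1377 and 62.7 to 4134 CPM, mesenchyme genes to 714 to 2933 and 1240 to 4488 CPM, endothelium genes to 143 to 202 and 170 to 302 CPM, and epithelium genes to 15.6 to 120 and 50.7 to 217 CPM. At E10, 5 or 6 of the 9 liver genes had no count in neuron-rich pixels. All values are shares of the counts, so that a lower share of blood, liver or heart transcripts leaves a larger share for every other gene, and its part in the increases was not tested.

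Levels were also followed outward from the neuron-rich pixels, in grid steps to the nearest of them, as a description. The cytoskeleton list fell at the first step in every section, from 28700 to 16560, 21210 to 12400, 22850 to 16090, 11630 to 5950, 13540 to 5411 and 15910 to 4527 CPM, and lay at 9416, 6961, 9736, 1801, 3034 and 2256 CPM at 7 or more steps. Progenitor genes did not follow this course. In E10 replicate 1 their sum was 4244 CPM in neuron-rich pixels, 5583 CPM 1 step away and 6257 CPM 2 steps away. In E10 replicate 2 and both E11 sections it was highest at 1 step (5672, 4407 and 5906 CPM, against 5144, 4332 and 5249 CPM in neuron-rich pixels). The rise was slight in E11 replicate 1. At E12 it was highest in the neuron-rich pixels themselves and fell from 3297 to 2697 CPM at 1 step and 1747 CPM at 7 or more steps. Cell cycle genes were lowest in neuron-rich pixels in 5 of the 6 sections and rose at the first step in all 6, by most in E10 replicate 1, from 4675 to 7106 CPM. Crest and glial genes fell outward in all 6 sections, and red cell genes were lowest in neuron-rich pixels in all 6. Pixels of 1 step measure 50 µm in E10 and E12 and 25 µm in E11, so distances differ between the sections.

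**Figure D4:**
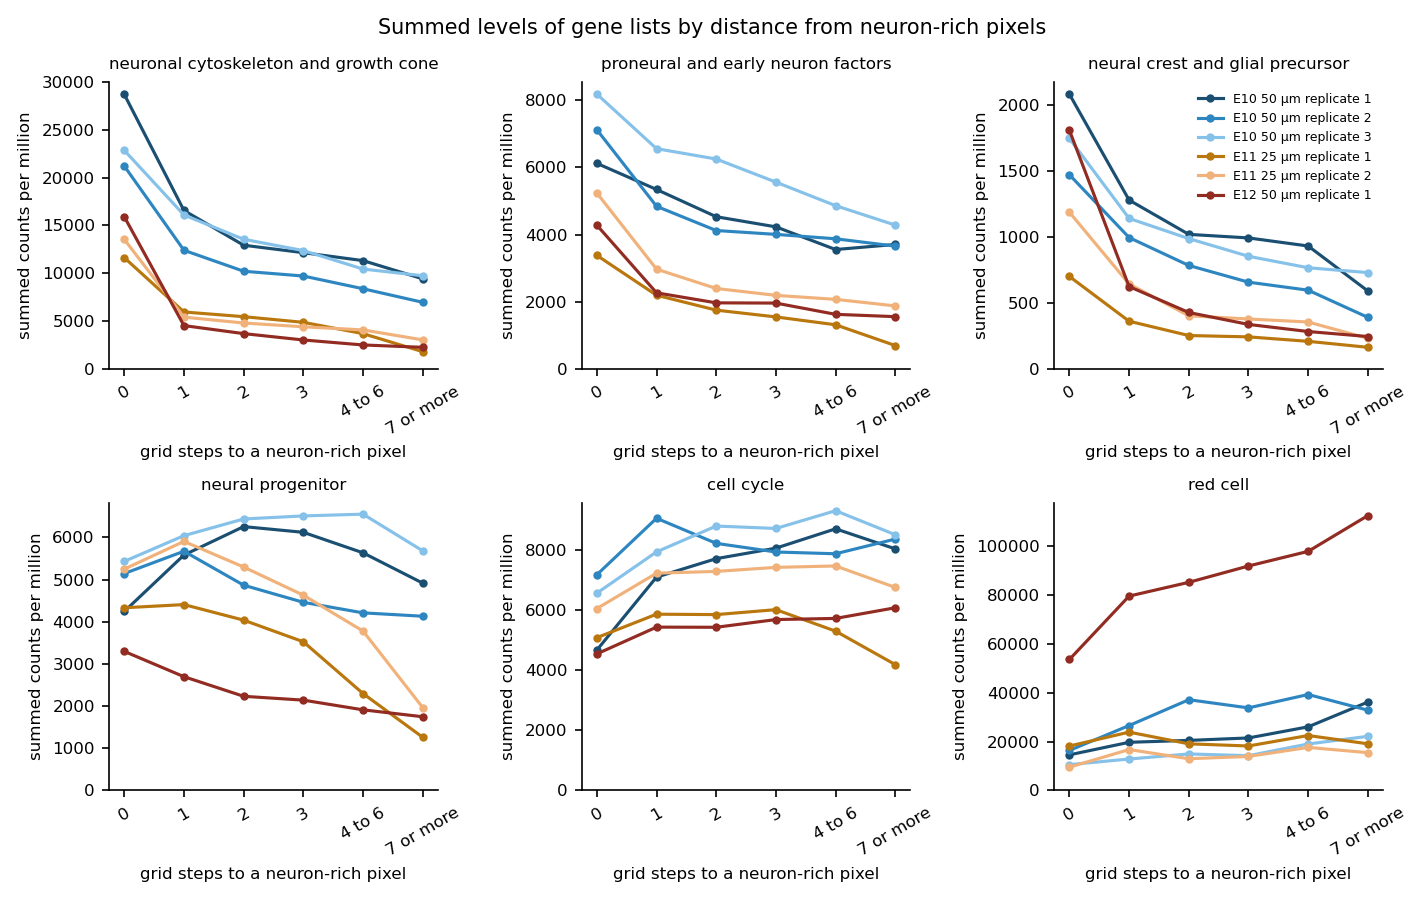
Summed level (CPM) of 6 gene lists in pixels at 0, 1, 2, 3, 4 to 6 and 7 or more grid steps from a neuron-rich pixel, 1 line per section. The cytoskeleton, proneural and crest lists fall after step 0, whereas the progenitor list is highest at step 1 in 3 sections, by little in E11 replicate 1. The cell cycle list is higher at step 1 than at step 0 in all 6.

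The next question was whether the difference between neuron-rich and other pixels varied between the groups. It was tested as an interaction in edgeR, with E10 as the common baseline, so that the comparisons with E11 and with E12 share the 3 E10 sections. For E11 against E10, 128 of 12844 genes passed (0.997%), 81 with a greater and 47 with a smaller difference at E11. With library totals in place of TMM factors, 153 passed, 123 greater and 30 smaller, and the median of all genes moved from -0.03 to 0.07. With the pair of E11 sections summed as 1, 70 genes passed. For E12 against E10, 154 genes passed (1.2%), 133 greater and 21 smaller, and the 1 E12 section was assumed to vary like the others. Proneural factors made up 10 of the genes with a greater difference at E11 and 5 of those at E12, out of 25 tested, cytoskeleton genes 5 and 14 out of 27, and progenitor genes 3 and 7 out of 23. With the E11 pair summed, the counts at E11 were 7 proneural, 3 cytoskeleton and 2 progenitor genes. None of the genes of these 3 lists had a smaller difference. Of the 17 sensory ganglion genes, 2 had a greater (1 with the pair summed) and 2 a smaller difference at E11, and 4 a greater and 2 a smaller difference at E12.

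Several of the genes named here had a lower level outside the neuron-rich pixels at E11 and E12. Neurod1, a factor of newly formed sensory and other neurons, was at 45.4, 122, 79.1, 44.6, 86.97 and 88.9 CPM in neuron-rich pixels and 31.9, 31.8, 39.8, 4.33, 6.22 and 3.28 CPM in the others. Its level in neuron-rich pixels was thus 44.6 to 122 CPM with no order by stage, while that in the others was 31.8 to 39.8 CPM at E10 and 3.28 to 6.22 CPM later. The difference was greater by 2.36 ± 0.40 at E11 (SE; edgeR adjusted p = 0.0021) and by 3.46 ± 0.52 at E12 (edgeR adjusted p = 0.00038). Nhlh1, of the same phase, was at 31.8, 30.8, 59.8, 33.5, 54.5 and 40.9 CPM against 20.98, 10.6, 33.5, 9.09, 5.5 and 2.07 CPM and behaved alike (1.68 ± 0.38 and 3.26 ± 0.58). Cntn2 was greater by 2.09 ± 0.18 and 2.27 ± 0.27, and Mapt by 1.46 ± 0.20 and 1.804 ± 0.22. In each of these genes the neuron-rich pixels of all 6 sections were above the other pixels of the same section, so the groups differ in size and not in sign.

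At E12, the difference in Pou4f1 was greater by 2.83 ± 0.42 (edgeR adjusted p = 1.5e-05). Prdm12, a factor of pain-sensing neurons, was at 7.26, 4.25, 8.28, 2.23, 5.19 and 23.99 CPM in neuron-rich pixels and 3.71, 3.09, 5.66, 2.38, 3.62 and 1.38 CPM in the others, highest in the neuron-rich pixels of E12 (3.32 ± 0.81; edgeR adjusted p = 0.02). Pou3f4, a factor of progenitors and neurons, was at 78.99, 112, 133, 60.3, 85.7 and 36.7 CPM against 72.4, 50.6, 133, 34.9, 45.9 and 2.42 CPM, near equal in 2 of the E10 sections and far apart at E12 (3.42 ± 0.63). Slc17a6 was greater by 2.05 ± 0.51. The single large E12 patch described above held 65 of the 154 neuron-rich pixels of that section.

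At E11 the gene with the greatest rise in difference was Olig2, a factor of motor neuron progenitors, at 0.908, 4.25, 5.52, 22.3, 20.8 and 1.41 CPM in neuron-rich pixels and 9.56, 7.52, 14.3, 7.14, 4.92 and 0.863 CPM in the others. It was lower in neuron-rich pixels of all 3 E10 sections and higher in those of both E11 sections (3.36 ± 0.62; edgeR adjusted p = 0.0011). Its levels in neuron-rich pixels rest on few counts in every section. Chl1, an adhesion molecule of axons, turned the other way, at 189.8, 154, 212, 17.9, 28.6 and 134 CPM against 29.3, 16.2, 31.7, 29.01, 38.9 and 12.8 CPM. It was far higher in neuron-rich pixels of the E10 and E12 sections and lower in those of both E11 sections (-3.49 ± 0.28; edgeR adjusted p = 5.6e-12). Runx1, which is made by some hindbrain and sensory neurons and by blood cells, was at 30.9, 6.38, 23.0, 4.46, 6.49 and 31.04 CPM against 4.88, 3.36, 7.44, 11.5, 16.1 and 32.8 CPM, higher in neuron-rich pixels at E10 and lower later, by little at E12 (-3.36 ± 0.58 at E11 and -2.11 ± 0.50 at E12). The Runx1 levels in neuron-rich pixels at E11 rest on few counts. Tshz2 was at 70.8, 99.9, 84.7, 80.3, 98.7 and 162 CPM against 18.8, 35.97, 38.1, 120.0, 117 and 206 CPM, again higher at E10 and lower at E11 and E12. Apom, of liver, and Was, of blood cells, were near the floor in both classes at E10, so their sign there rests on few counts. Apom was at 1.82, 2.13 and 1.84 CPM in neuron-rich pixels of the 3 E10 sections against 1.17, 0.403 and 1.05 CPM. Was was at 3.63, 3.19 and 3.68 CPM against 2.64, 2.82 and 2.83 CPM. Both were lower in neuron-rich pixels of the E11 and E12 sections. At E11 their levels outside the neuron-rich pixels were 60.5 to 142 and 16.1 to 44.0 CPM, against 0.403 to 1.17 and 2.64 to 2.83 CPM at E10.

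**Figure D5:**
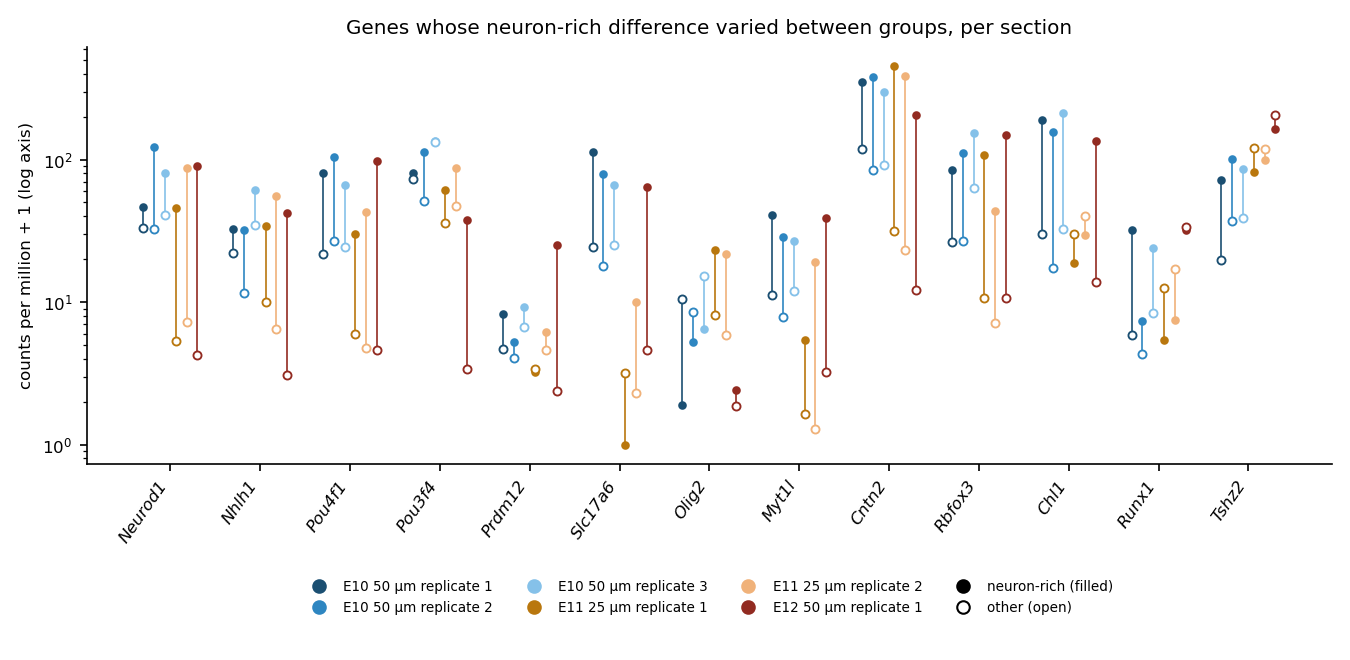
Levels (CPM + 1, log axis) in neuron-rich (filled) and other pixels (open) of each section for 13 genes whose neuron-rich difference varied between E10, E11 and E12. For Neurod1 the open points drop from 31.8 to 39.8 CPM at E10 to 3.28 to 6.22 CPM later, and for Chl1 the order of filled and open points is reversed in the 2 E11 sections.

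The rule was then applied to the 5 sections it did not name, which were 3 of E10 (25 µm, and 2 of 10 µm) and 2 of E11 (10 µm) and gave 978 neuron-rich pixels. They share no library with the 6 sections. In a fit of their own, edgeR called 304 of 10891 genes higher (2.79%) and 68 lower (0.624%). Of the 10794 genes tested in both sets, 3131 were called in the 6 sections. Of the 364 called in the 5 sections and tested in both, 323 were called with the same sign in the 6 sections. That is 88.7% of the 364 and 10.3% of the 3131. Of the 12 genes with the largest increase in the 6 sections, 4 were tested in the 5, all 4 were higher and 2 were called. Of the 8 with the largest decrease, 4 were tested in the 5, 1 was lower and none was called lower. The following counts are for the 5 sections. The cytoskeleton list was higher in 19 of 26 tested genes, vesicle genes in 10 of 14, channels in 7 of 11 and proneural factors in 9 of 19. Lists of neuron types rose in fewer genes. None of 3 motor genes passed (median log2 fold change -0.43). Sensory ganglion genes were higher in 1 of 10 cases, interneuron factors in 5 of 13 with 1 lower, and crest and glial genes in 2 of 8. Of 24 cell cycle genes, 3 fell and none rose (median log2 fold change -0.26), and of 11 mesenchyme genes 3 fell and none rose. None of 10 heart muscle genes passed in either direction (median log2 fold change 0.08), and 3 of 8 forebrain genes were higher. Whether the 2 sets of sections differ in these lists was not tested. In E11 10 µm replicate 2, 96.9% of the other pixels had none of the 5 transcripts, a neuron-rich pixel held a median of 1.0 of them, and the neighbour shares of the 2 classes were 10.4 and 9.96%. Leaving it out gave 557 calls. Leaving out the first or the other E10 section of 10 µm gave 164 or 243, and leaving out the E10 section of 25 µm gave 228.

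Antibody tags did not enter the rule. They were counted for 22 antibodies in E10 replicates 1 and 3, and no test was run on these 2 sections. As shares of all antibody counts, 13 antibodies were higher and 4 lower in neuron-rich pixels of both sections, but as counts per pixel 21 of the 22 were lower in both, so the direction depends on the scale. As shares, the log2 ratios of the antibodies named here lay between -0.28 and 0.29, and per pixel they reached -0.64 for EpCAM in E10 replicate 3. The EpCAM antibody made up 3.41 and 2.77% of antibody counts in neuron-rich pixels and 3.69 and 3.36% in the others (log2 ratio -0.11 and -0.28), lower on both scales. The Epcam transcript, tested in 6 sections, fell by 1.23 on the log2 scale (edgeR adjusted p = 0.00098). The panendothelial antibody was lower as well (log2 ratio of shares -0.13 and -0.17), while 2 other antibodies to endothelial proteins had slightly higher shares, ESAM with 0.03 and 0.08 and KDR with 0.0056 and 0.09, and ICAM2 differed in sign with 0.01 and -0.22. The endothelial transcripts Emcn and Cdh5 fell by 0.84 and 0.59. Of the other antibodies with a higher share, CD49d, an integrin chain, had log2 ratios of 0.10 and 0.29 and was lower by 0.08 and 0.07 per pixel.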

How the data were processed

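The data are gene counts for the pixels of 11 sections of frozen mouse embryos, with antibody tag counts for 2 of the sections. The authors deposited whole-number counts per gene and pixel with no normalization. Per the submitters' processing notes, CASAVA 1.8.2 was used and the build was GRCh38, a human build, although the samples are mouse. The aligner, annotation, use of strand and handling of duplicate molecules are not given in the sources used here. Genes with near-identical copies (Hba-a1 and Hba-a2) and overlapping genes such as those of the Hox clusters are therefore uncertain.

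Counts were summed over neuron-rich and other tissue pixels of each section, and pixels were never treated as replicates. A robust quasi-likelihood fit in edgeR 4.0.16 under R 4.3.3 tested the sums after TMM scaling and edgeR's own filter for weakly expressed genes. The section entered as a block, which pairs its 2 sums. P-values are two-sided and adjusted by Benjamini-Hochberg over all genes tested, with 0.05 as the threshold. DESeq2 1.42.0 was an alternative. The scripts were tested on simulated counts. Antibody and transcript libraries were matched by the shared start of their titles. Promoter sequences are RefSeq's, build GRCm38.p6, and were read from a table, not from the authors' alignment.

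The members and gene lists were chosen with earlier results of these data known. Genes named in the text are the 12 highest and 8 lowest fold changes among called genes with 1 sign in all 6 sections and a mean of at least 20 CPM in the higher class, up to 3 called genes with the largest change in each list, up to 4 in each direction for the differences between groups, and further list genes chosen after their values were seen to describe each list. Alternatives were the share of pixels called (top 5% or 20%), a tissue threshold of 0.2, a score after thinning to 1000 counts, other normalizations and filters, and leaving out each section. Binomial intervals were not used. Some genes of the lists are not reported here. The 2 antibody libraries at 10 and 25 µm were not used here. Depth limits the score most at E11 and E12, where a neuron-rich pixel holds a median of 4.0 to 8.0 marker counts.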

Additional observations from a re-analysis of the deposited data

Results flagged for a closer look

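The results below are genes whose difference between neuron-rich and other pixels was not the same in 2 groups by the interaction test of edgeR (adjusted p under 0.05). Values are log2 differences of differences. Stage and body level cannot be told apart in them, nor can pixel width at E11, and both comparisons share the 3 E10 sections. The genes of the score, which chose the pixels, were also further apart between the classes at E11 and E12 than at E10. The part of this in the values below was not tested.

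At E11 against E10, the difference was greater for the axonal and adhesion genes Cntn2 (2.09), Nfasc (1.82), Mapt (1.46) and L1cam (1.43). Among RNA-binding proteins it was greater for Rbfox3 (1.40) and Elavl2 (1.34), and among transcription factors for Olig2 (3.36), Myt1l (2.93), Neurod1 (2.36), Nhlh1 (1.68), Myt1 (1.47) and Onecut2 (1.13). Rgs4, a regulator of G protein signalling, was at 21.8, 24.4, 14.7, 15.6, 33.8 and 64.9 CPM in neuron-rich pixels and 8.98, 8.99, 7.12, 0.65, 1.74 and 17.4 CPM in the others, with a value of 2.96. Cdk5r1 had a value of 1.44. For Ttn, a muscle gene, the value of 0.71 means a smaller reduction in neuron-rich pixels at E11 than at E10. A smaller difference was found for Apom (-4.50), Chl1 (-3.49), Runx1 (-3.36), Was (-3.12) and Tshz2 (-1.97). The E10 levels of Apom and Was were near the floor in both classes, so these 2 values rest on few counts there. The neuron-rich levels of Olig2, and of Runx1 at E11, also rest on few counts. The difference in Was no longer passed under 10 alternatives and that in Myt1l under 8, while that in Chl1 passed under all 17 alternatives run.

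At E12 against E10, the difference was greater for Neurod1 (3.46), Pou3f4 (3.42), Prdm12 (3.32), Nhlh1 (3.26), Pou4f1 (2.83) and Myt1 (2.60) among transcription factors. It was also greater for Cntn2 (2.27), Rbfox3 (2.17), Slc17a6 (2.05), Elavl2 (1.87) and Mapt (1.804). A smaller difference was found for Mybpc1 (-2.14), a myosin-binding protein of muscle, Runx1 (-2.11), Tshz2 (-1.93) and Tmcc2 (-1.82). Mybpc1 was at 15.4, 7.44, 28.5, 8.93, 10.4 and 16.9 CPM in neuron-rich pixels and 12.5, 3.89, 9.01, 2.81, 5.94 and 34.7 CPM in the others, and Tmcc2 at 34.5, 20.2, 49.7, 29.01, 37.6 and 35.3 CPM against 19.03, 13.3, 27.96, 19.9, 11.0 and 67.3 CPM. Both were above the other pixels in each E10 and E11 section and below them in the E12 section.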

How the results depend on the processing

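For the comparison of neuron-rich with other pixels, 3671 genes passed in edgeR, and 1368 passed without the section (the replicate block), which is part of the design because both classes come from the same section. All other alternatives stayed within 1.5 times of it (2799 to 4475), and the split of calls without a filter was 1738 higher and 2737 lower. The 128 differences at E11 became 44 in DESeq2, 1 with no replicate block, 271 with the top 20% of pixels, 78 with a tissue threshold of 0.2, 66 after thinning, 70 with the E11 sections summed (chosen after seeing the data) and 28 to 177 when 1 section was left out, lowest without E11 replicate 2 (28) and replicate 1 (53). The 154 differences at E12 became 77 in DESeq2 and 0 with no replicate block (edgeR; 293 at an unadjusted p under 0.05). In the 5 other sections the 372 calls became 241 in DESeq2, 791 with no filter and 164 to 557 when 1 section was left out. The neighbour difference was 42.0 points with the E11 sections averaged and 38.6 to 43.6 points without 1 section, where 5 samples cannot reach an exact p of 0.05. Of 76 fold changes of named genes, 1619 of 1688 values under alternatives kept their direction and side of the threshold, 68 (15 genes) no longer passed, among them those of Tie1 (16 alternatives), Tcf15 (11), Esrp1 (7), Myh6 (6) and Ccng2 (6), and 1 reversed: Fgb, 0.062 in DESeq2. Of 16 differences between groups, 56 of 254 values (15 genes) no longer passed. Antibody means turned negative on the scale of the median antibody for CD309-KDR (-0.0002), CD41-ITGA2B (-0.023) and FCER1A (-0.00696), and per pixel, a scale added after seeing the data, for CD201-EPCR (-0.213), CD309-KDR (-0.225), CD41-ITGA2B (-0.248), CD45-PTPRC (-0.152), CD49d-ITGA4 (-0.0766), CD55 (-0.133), ESAM (-0.218), FCER1A (-0.232), Folate-Receptor (-0.0992), Ly-6A-E (-0.181), MAdCAM-1 (-0.148), Notch1 (-0.152) and P2RY12 (-0.104). The cause of these changes was not tested.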
